A study of Mus musculus with 8 samples.

Results

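The guidance genes described here encode the semaphorin, ephrin, Slit and netrin ligands and their plexin, neuropilin, Eph, Robo and Unc5 receptors, measured by RNA sequencing in the hair germ and the surface epidermis of newborn mice with and without a miR-200 transgene. They were chosen by gene symbol alone, and 68 of the 23433 symbols in the count tables matched. These were 7 class 3, 6 class 4, 2 class 5, 4 class 6 and 1 class 7 semaphorins, 9 plexins, 2 neuropilins, 5 ephrin A and 3 ephrin B ligands, 9 EphA and 5 EphB receptors, 3 Slits, 4 Robos, 4 netrins and 4 Unc5 receptors. The rule used no measured value. Of the 68, 55 passed the filter on low counts and were tested, and 13 did not.

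Guidance ligands steer growing axons and migrating cells, and epithelia use the same molecules to place cells and keep cell populations apart. Class 3 semaphorins are secreted and mostly act through a neuropilin that binds the ligand and a plexin that signals, whereas class 4 to 7 semaphorins are mainly membrane-bound and bind plexins directly. Ephrins are tethered to the cell surface and signal to Eph receptor tyrosine kinases on neighbouring cells, secreted Slits bind Robo receptors, and netrins bind Unc5 receptors and Dcc. Keratinocytes express ephrins and Eph receptors, which take part in boundary formation and differentiation in the epidermis.

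The populations were the hair germ (HG), an epithelial bud that grows into a hair follicle, and the interfollicular epidermis (IFE), the surface epithelium around it. Pups 4 and 6 were transgenic: they had both pTRE2-200bcl, which encodes miR-200 behind a doxycycline-responsive promoter, and K14rtTA, which places the doxycycline-dependent activator under the keratin 14 promoter of basal keratinocytes. Control pup 3 carried K14rtTA alone and control pup 5 carried pTRE2-200bcl alone, so that neither control had the complete system and the 2 control pups differed in genotype. All pups were at postnatal day 0.5 on a mixed strain background, and all dams ate doxycycline chow during pregnancy. Each pup gave 1 library of each population, sorted from skin as K14RFP-positive, alpha6 integrin-high cells that were P-cadherin high for HG or P-cadherin low for IFE. The groups were therefore HG transgenic, HG control, IFE transgenic and IFE control, each with n = 2 pups. Values below are given for pups 4 and 6 of a transgenic group and for pups 3 and 5 of a control group, in that order.

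The miR-200 family has 5 mature members that fall into a pair of seed groups, and these seeds were used below to search the 3′ untranslated regions (UTRs) of the guidance genes. The family members on the construct are a detail not given in the sources used here. Mature mouse sequences, credited to RefSeq (GRCm38.p6), are printed with the seed, bases 2 to 8, in capitals.
miR-200b-3p: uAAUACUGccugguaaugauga
miR-200c-3p: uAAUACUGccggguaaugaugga
miR-429-3p: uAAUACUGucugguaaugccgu
miR-200a-3p: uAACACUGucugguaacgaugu
miR-141-3p: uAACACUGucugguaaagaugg
The first 3 share the seed AAUACUG, which pairs with CAGTATT in a transcript, and the other 2 share AACACUG, which pairs with CAGTGTT. The separately counted miR-200 primary transcript checked the transgene, with 526 and 798 CPM (the usual depth-scaled count unit, here with TMM-scaled library sizes) in HG transgenic libraries against 0.176 and 1.40 CPM in HG controls, and 607 and 714 CPM in IFE transgenic libraries against 3.83 and 2.63 CPM in IFE controls. Every transgenic library lay above every control library.

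Assigned counts ranged from 7109871 to 14039583 per library, of which the guidance genes took 0.286% to 0.536%. Rn45s, the ribosomal RNA precursor, took 29.0% of counts in the IFE library of transgenic pup 4 and 30.6% in that of control pup 3, against 3.56% to 13.01% elsewhere. Pup 4 was male by expression, with 44 and 62 Xist counts in its libraries against 18356 to 48347 in the other 6. Marker lists for the sorted cells were detected, and the sum of 10 hair germ markers was higher in HG, at 1851 and 2212 CPM in HG against 1021 and 1044 CPM in IFE of transgenic pups, and at 2700 and 2429 CPM in HG against 1332 and 1749 CPM in IFE of control pups. By edgeR, 5 of the 10 passed as higher in HG of transgenic pups and 0 in control pups. Cdh3, the gene of the P-cadherin used in the sort, is among the 10, so the sum is partly tied to the sort itself. Cdh3 averaged higher in HG without passing the test (log2 fold change 0.49, SE 0.16, edgeR adjusted p = 0.126). Markers of other cell types differed in level between the genotypes. The summed level of 17 immune cell markers was 421 and 253 CPM in HG transgenic libraries against 150 and 72.5 CPM in HG controls, and 3778 and 3010 CPM in IFE transgenic libraries against 238 and 128 CPM in IFE controls. The 11 melanocyte markers summed to 157 and 207 CPM in HG transgenic against 36.6 and 32.8 CPM in HG control libraries, and to 170 and 149 CPM in IFE transgenic against 24.4 and 21.5 CPM in IFE control libraries. In contrast, 10 basal keratinocyte markers summed to 23520 and 19220 CPM in HG transgenic libraries against 33140 and 28520 CPM in HG controls, and to 18280 and 18540 CPM in IFE transgenic libraries against 36340 and 39290 CPM in IFE controls.

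Receptors of several families and the class 3 ligands Sema3c and Sema3f were among the most abundant guidance genes. Per kilobase of exon, which allows levels of different genes to be compared, Plxnb2, a plexin that binds class 4 semaphorins, stood at 60.7 CPM per kb in HG transgenic, 54.1 in HG control, 64.5 in IFE transgenic and 61.1 in IFE control libraries. It was the highest member in both transgenic groups. Sema3f, a secreted repellent that acts through Nrp2, led in HG control at 64.0 CPM per kb, where its pups differed widely (305 and 142 CPM), and the receptor Epha2 led in IFE control at 61.3 CPM per kb, where Plxnb2 lay so near that the order of these 2 is within the spread between pups. Robo1, a Slit receptor, was the second highest member in HG transgenic libraries at 56.9 CPM per kb, and Ephb4, the receptor of ephrin B2, was second in HG control libraries at 61.5. In IFE transgenic libraries Epha2 was second at 43.0 and Plxnd1 was the third at 34.2 CPM per kb, while Plxnd1 stood at 4.43 CPM per kb in IFE control libraries. Sema3c stood at 38.2 CPM per kb in HG transgenic, 38.7 in HG control, 32.2 in IFE transgenic and 54.1 in IFE control libraries, above Sema3f in both transgenic groups and below it in both control groups. Between 22 and 24 members reached 10 CPM per kb in each group, and 14 to 23 members averaged under 1 CPM.

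At the low end, 12 members had no count in either HG control library, against 4 members in HG transgenic libraries, 5 in IFE transgenic and 6 in IFE control libraries. The share of all symbols without a count was not taken, so these counts show no trait of the guidance genes. Epha6 had no count in any of the 8 libraries. A count of 0 allows a level of up to 0.199 to 0.522 CPM, depending on the library. The 13 members that were not tested had at most 55 counts over all libraries and at most 3.70 CPM in a single one, which was Unc5d in the HG library of transgenic pup 4. Unc5d had 0 CPM in the HG library of transgenic pup 6, so its level there rested on 1 pup (this gene was picked out after its values were seen).

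In IFE, 9 of the 55 tested guidance genes differed between transgenic and control pups, 5 higher and 4 lower, where 6.34% of all 14176 genes tested passed the same threshold of an edgeR adjusted p of 0.05 (4.99% higher and 1.35% lower). The receptors Plxnd1, Plxnc1, Nrp1 and Nrp2 and the ligand Sema3e rose, and the ligands Sema3d and Sema3f and the receptors Ephb3 and Plxna2 fell. The median log2 fold change of the 55 genes was -0.40, against -0.01 over all genes tested, and -0.41 to -0.12 over 19 alternatives. In HG, 2 of the 55 passed, the ligands Sema3e and Slit2, both higher, where 0.952% of all genes passed (0.762% higher and 0.19% lower). The HG median was 0.07, against 0.04 over all genes, and changed sign over the alternatives (-0.05 to 0.16). With all libraries, no guidance gene passed as lower in HG by edgeR, by DESeq2 or by limma-voom, whereas Sema3f did by edgeR without the HG library of control pup 5 (-1.27, adjusted p = 0.0349). At an unadjusted edgeR p under 0.05 there were 12 members in HG, 10 higher and 2 lower, which is 21.8% of the members tested against 17.1% of all genes. Transgenic and control groups share no pup. Where libraries of compared groups are said to overlap or not, this is a description only. The share of all genes without overlap was not taken. With n = 2 a group, lack of overlap can easily arise without any effect. In these bulk libraries, fewer cells of a type and less RNA per cell cannot be told apart.

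**Figure D1:**
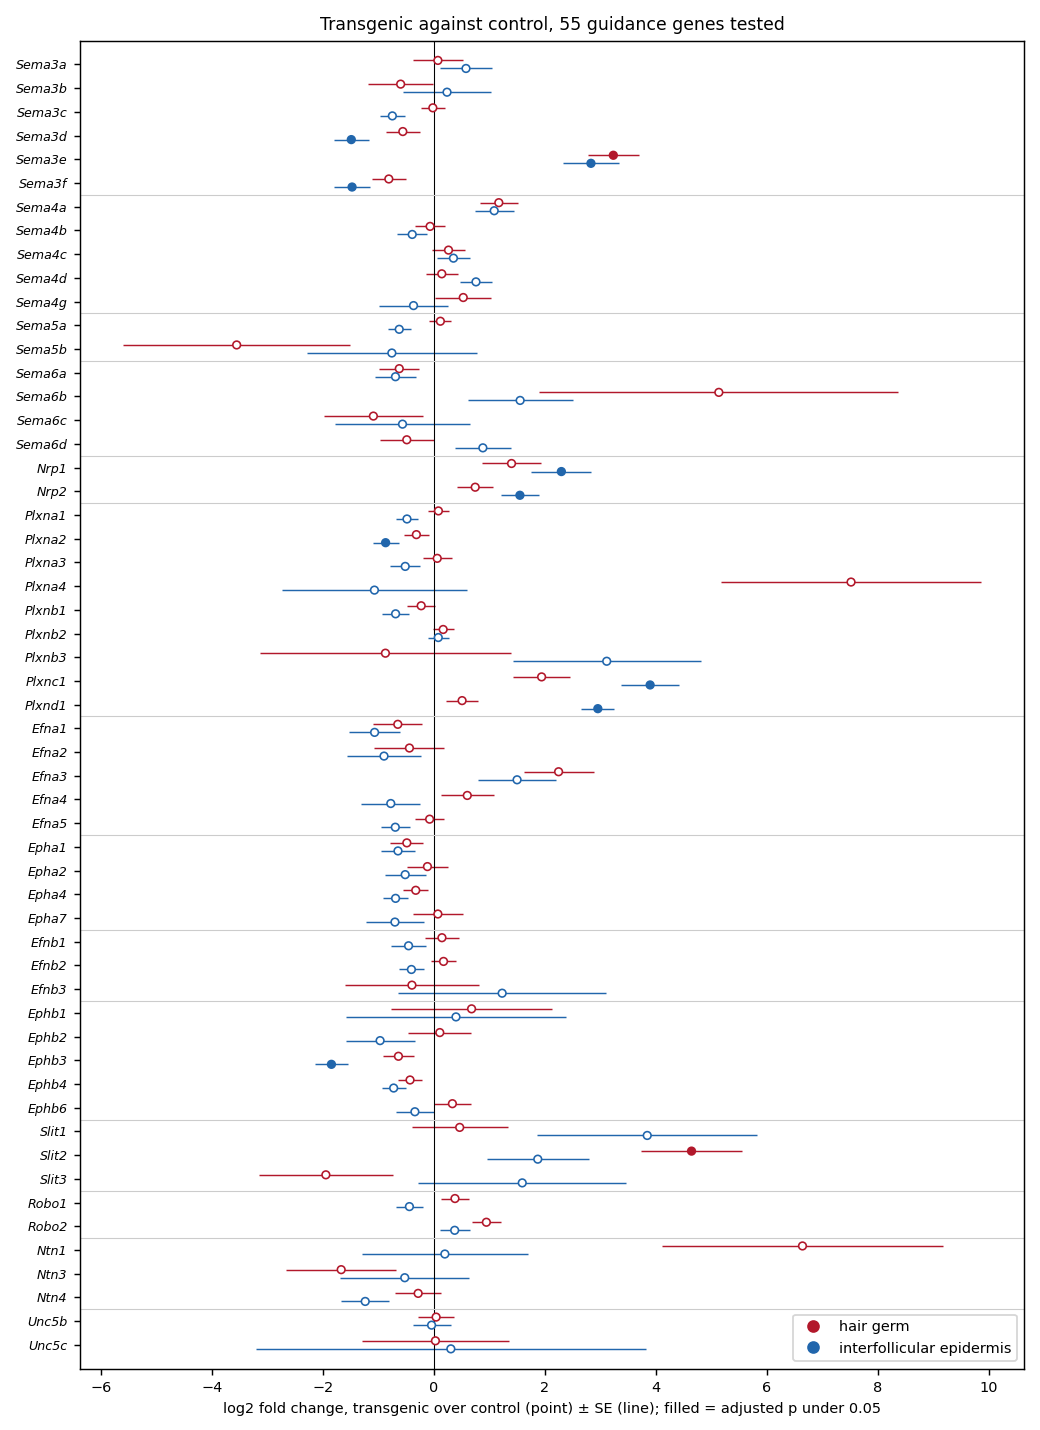
Log2 fold change of transgenic over control pups (horizontal axis, point) with its SE (line) for the 55 guidance genes tested, grouped by family, with HG in red and IFE in blue and filled points for an edgeR adjusted p under 0.05. The filled points are 2 in HG and 9 in IFE, and the widest lines belong to genes with few counts, such as Plxna4 and Ntn1, which had 0 counts in both HG control libraries.

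Among secreted semaphorins, Sema3e was far higher in transgenic pups of both populations, whereas Sema3d and Sema3f were lower in transgenic IFE. Sema3e (GRCm38 chr5:14025276-14256689, plus strand) encodes a ligand that binds Plxnd1 without a neuropilin. It stood at 69.9 and 65.7 CPM in HG transgenic libraries, against 3.78 and 10.3 CPM in HG control libraries. In IFE it stood at 29.8 and 43.7 CPM in transgenic libraries, against 7.49 and 3.65 CPM in control libraries. The lowest transgenic library was above the highest control library in both populations. The log2 fold change was 3.23 in HG (SE 0.46, edgeR adjusted p = 0.0165) and 2.83 in IFE (SE 0.50, adjusted p = 0.00549). The difference between these effects, 0.40 (SE 0.68), did not pass (adjusted p = 0.971), with a 95% interval of -1.08 to 1.89. The HG call was lost without the HG library of transgenic pup 4 (log2 fold change 3.15, adjusted p = 0.0926), without that of transgenic pup 6 (3.26, 0.0997) and without both libraries of pup 4 (3.16, 0.235), and the IFE call was lost without the IFE library of control pup 5 (2.32, 0.115) and without pup 4 (3.14, 0.0629).

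Sema3d, a class 3 semaphorin best known from heart and vessel development, had 36.6 and 28.5 CPM in IFE transgenic libraries, against 116 and 67.2 CPM in IFE control libraries. Sema3f had 68.0 and 75.9 CPM in IFE transgenic libraries, against 234 and 167 CPM in IFE control libraries. For both genes the transgenic and control libraries did not overlap. Control pup 3 was the highest of the 4 IFE libraries, and its IFE library is 1 of the 2 rich in Rn45s. The log2 fold change was -1.49 for Sema3d (SE 0.32, edgeR adjusted p = 0.0160) and -1.47 for Sema3f (SE 0.32, adjusted p = 0.0171), and both genes fell. Both calls were lost without the 2 libraries rich in Rn45s (-1.22 for Sema3d, -1.11 for Sema3f) and without both libraries of pup 4 (-1.61 and -1.34). In HG both lay lower without passing, with log2 fold changes of -0.56 for Sema3d (SE 0.31, adjusted p = 0.388) and -0.81 for Sema3f (SE 0.31, adjusted p = 0.212). Without the HG library of control pup 5, Sema3f passed as lower in HG (-1.27, adjusted p = 0.0349). The IFE call of Sema3d was lost without the IFE library of control pup 3 (-0.996, adjusted p = 0.177), transgenic pup 4 (-1.66, 0.0825) or transgenic pup 6 (-1.28, 0.214). That of Sema3f was lost without the IFE library of control pup 3 (-1.15, 0.138), transgenic pup 4 (-1.39, 0.161) or transgenic pup 6 (-1.53, 0.0941), and without the HG library of transgenic pup 6 (-1.44, 0.0505).

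Both genes carry miR-200 seed matches in the 3′ UTR. Sema3d has 4 such matches in a 3646-base UTR and Sema3f has 1 in a 929-base UTR (longest GENCODE M21 UTR of each gene, GRCm38). The following stretches of 26 bases, on the transcript strand, show 1 match of each seed group in Sema3d (chr5:12586933-12586958 and chr5:12586544-12586569, plus strand) and the Sema3f match (chr9:107682305-107682330, minus strand), with the bases that pair with the seed in capitals.
Sema3d, CAGTATT match: atctcttcaaagtagcatCAGTATTt
Sema3d, CAGTGTT match: gttacataaactttcaagCAGTGTTg
Sema3f, CAGTATT match: accctacccctgcaaagaCAGTATTt
Sema3e, which rose, had no match.

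The other semaphorins did not pass in either population. Among class 3, Sema3c was the most abundant by count, at 180 and 240 CPM in HG transgenic against 232 and 193 CPM in HG control libraries, and 177 and 177 CPM in IFE transgenic against 333 and 262 CPM in IFE control libraries. The groups overlapped in HG and not in IFE. Sema4a, a membrane semaphorin known for roles in immune cells, had 33.9 and 35.1 CPM in HG transgenic against 19.6 and 11.3 CPM in HG control libraries, and 39.1 and 37.0 CPM in IFE transgenic against 18.8 and 17.2 CPM in IFE control libraries. All 4 transgenic libraries lay above all 4 control libraries, yet neither log2 fold change passed, at 1.17 in HG (SE 0.35, edgeR adjusted p = 0.126) and 1.09 in IFE (SE 0.35, adjusted p = 0.106). Without the HG library of control pup 3 or control pup 5, Sema4a passed in IFE (adjusted p = 0.0342 and 0.0365). Sema4d, a ligand of B-class plexins, reached 102 and 83.8 CPM in IFE transgenic libraries, against 65.1 and 45.4 CPM in IFE controls. Sema6a, a transmembrane ligand of A-class plexins, had 78.1 and 73.3 CPM in HG transgenic libraries, against 120 and 113 CPM in HG controls, with no overlap between the groups (log2 fold change -0.62, SE 0.36, adjusted p = 0.408). Sema5a, a transmembrane semaphorin with thrombospondin repeats, had 91.0 and 93.3 CPM in IFE transgenic libraries, against 156 and 129 CPM in IFE controls (-0.62, SE 0.20, adjusted p = 0.106).

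Sema4b was the most abundant class 4 member, at 99.5 and 153 CPM in HG transgenic against 154 and 110 CPM in HG control libraries, and 115 and 97.8 CPM in IFE transgenic against 160 and 119 CPM in IFE control libraries. Sema6d had 18.1 and 14.1 CPM in IFE transgenic libraries, against 7.49 and 9.51 CPM in IFE controls, with no overlap, while its HG groups overlapped. Sema5b stayed at or under 2.39 CPM in every library.

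**Figure D2:**
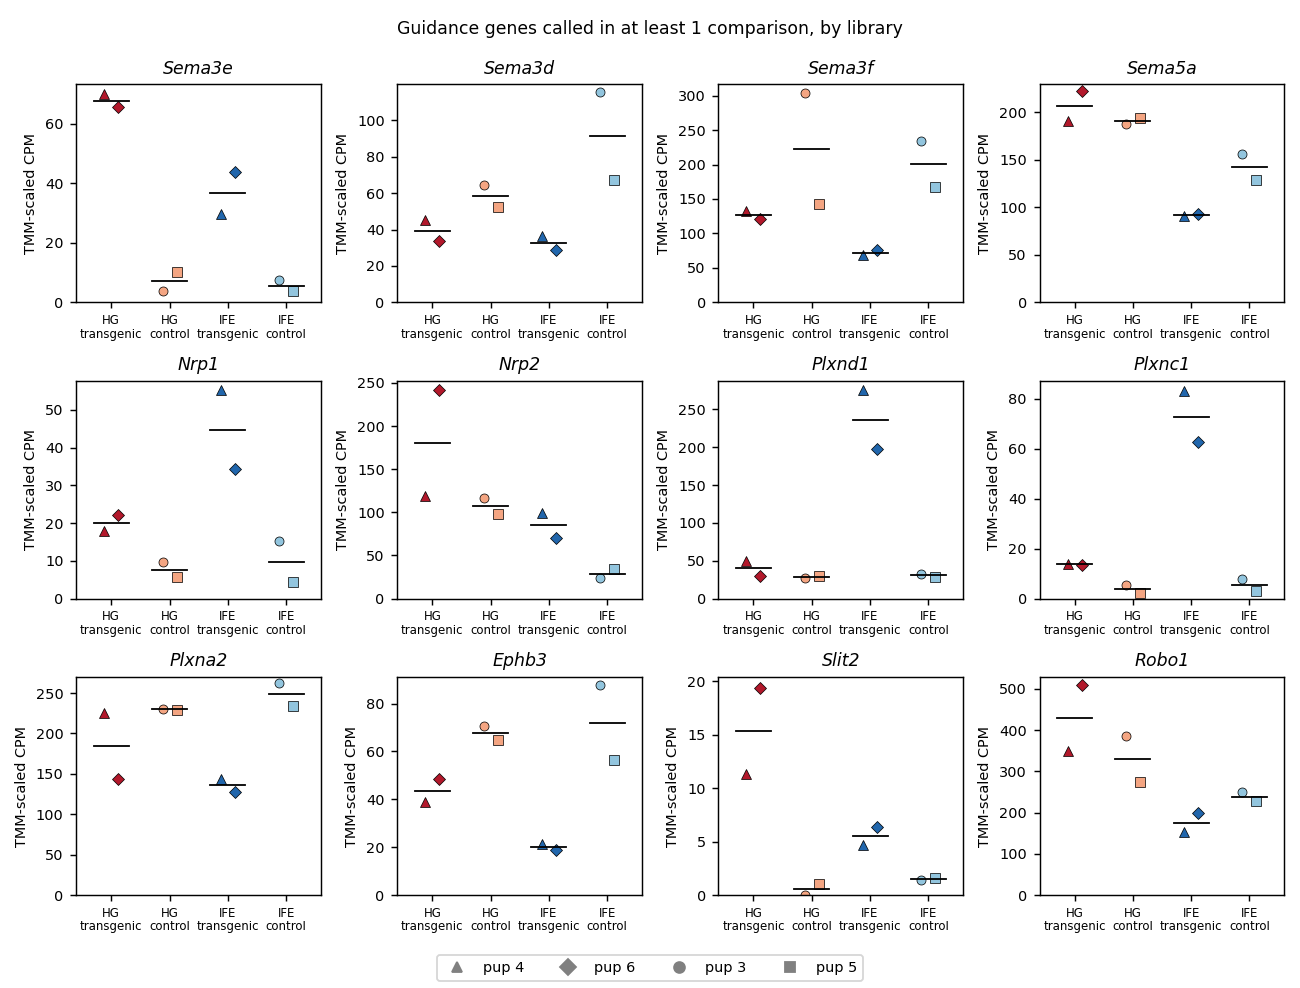
TMM-scaled CPM (vertical axis, linear, from 0) in each of the 8 libraries for the 12 guidance genes that passed in at least 1 comparison, with symbols for the pups and a bar at the group mean of n = 2. Sema3e is high in all 4 transgenic libraries, Plxnd1 and Plxnc1 are high in the IFE transgenic libraries only, at 198 to 275 and 62.5 to 83.1 CPM, and the means of Ephb3, Sema3d and Sema3f are lowest there.

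Both neuropilins rose in transgenic IFE. These are the co-receptors that bind class 3 semaphorins and, in blood vessels, vascular endothelial growth factor. Nrp1 (chr8:128358604-128503363, plus strand) stood at 55.2 and 34.4 CPM in IFE transgenic libraries, against 15.2 and 4.50 CPM in IFE control libraries. Nrp2 (chr1:62703285-62818695, plus strand), the partner of Sema3f, stood at 99.1 and 70.7 CPM in IFE transgenic libraries, against 23.3 and 33.8 CPM in IFE control libraries. The groups did not overlap for either gene. The log2 fold change was 2.30 for Nrp1 (SE 0.54, edgeR adjusted p = 0.0257) and 1.55 for Nrp2 (SE 0.34, adjusted p = 0.0190). In HG, Nrp1 had 17.9 and 22.2 CPM in transgenic against 9.66 and 5.65 CPM in control libraries (1.40, SE 0.53, adjusted p = 0.206). Nrp2 in HG had 119 and 242 CPM in transgenic against 116 and 98.6 CPM in control libraries (0.74, SE 0.32, adjusted p = 0.269), and transgenic pup 6 stood apart there. The Nrp1 call in IFE held in 11 of 19 alternatives. It was lost without the IFE library of control pup 5 (1.55) or transgenic pup 4 (1.99). Leaving out the HG library of transgenic pup 4 (2.31) or transgenic pup 6 (2.31) also lost it. So did leaving out both libraries of pup 4 (2.01) or the 2 libraries rich in Rn45s (2.95). The Nrp1 call was lost as well with edgeR's legacy method (2.21, adjusted p = 0.0708) and with only the libraries compared (2.23, adjusted p = 0.0529). The Nrp2 call was lost without the IFE library of control pup 3 (1.39, 0.12), control pup 5 (1.86, 0.0813) or transgenic pup 4 (1.29, 0.190).

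Of the 9 plexins, Plxnd1 and Plxnc1 rose in transgenic IFE and Plxna2 fell, while the abundant Plxnb2 and Plxna1 did not pass. Plxnd1 (chr6:115954811-115995005, minus strand), the receptor of Sema3e that is best known from blood vessels, stood at 275 and 198 CPM in IFE transgenic libraries, against 32.6 and 28.6 CPM in IFE control libraries. In HG it stood at 50.3 and 30.3 CPM in transgenic libraries, against 27.2 and 29.7 CPM in control libraries. The IFE groups were far apart and the HG control libraries lay just under the lower HG transgenic library. The log2 fold change was 2.95 in IFE (SE 0.30, edgeR adjusted p = 0.000197) and 0.51 in HG (SE 0.28, adjusted p = 0.392). Plxnd1 was the only guidance gene of the 55 whose transgenic effect differed between the populations by the test (HG effect minus IFE effect -2.45, SE 0.40, adjusted p = 0.0479, where 0.134% of all genes passed). That last call was lost without any 1 of the IFE libraries of control pup 3 (-2.60, 0.0876), control pup 5 (-2.35, 0.206), transgenic pup 4 (-2.20, 0.366) and transgenic pup 6 (-2.72, 0.107), and without the HG library of transgenic pup 4 (-2.93, 0.0907) or transgenic pup 6 (-2.19, 0.248). With the pup as a block its adjusted p was 0.00967. The effect in IFE itself passed in all 19 alternatives tried, with log2 fold changes of 2.71 to 3.21.

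Plxnc1, a receptor for Sema7a, stood at 83.1 and 62.5 CPM in IFE transgenic libraries, against 7.84 and 2.89 CPM in IFE control libraries. In HG it stood at 14.0 and 13.6 CPM in transgenic libraries, against 5.27 and 2.13 CPM in control libraries. Transgenic libraries were higher than control libraries in both populations, with the largest values in IFE. The log2 fold change was 3.90 in IFE (SE 0.52, edgeR adjusted p = 0.000875), which passed in all 19 alternatives tried, and 1.94 in HG (SE 0.52, adjusted p = 0.0957). By DESeq2 Plxnc1 passed in HG as well (1.91, DESeq2 adjusted p = 0.0225). Its known ligand Sema7a had 0 counts in 6 of the 8 libraries and at most 0.756 CPM. Plxnc1 shares exon sequence on the same strand with Gm48718, so that part of its reads may not have been assigned. The 2320-base 3′ UTR of Plxnc1 holds 1 match of each seed group (chr10:94792897-94792922 and chr10:94792602-94792627, minus strand).
Plxnc1, CAGTATT match: gggccagtaagcaagtgtCAGTATTg
Plxnc1, CAGTGTT match: gtttaaaccaaaaactaaCAGTGTTg
Plxna2, a receptor for class 6 and, with neuropilins, class 3 semaphorins, holds 1 match in a 4708-base UTR (chr1:194813279-194813304, plus strand).
Plxna2, CAGTATT match: tgtaggtttaaaaagcagCAGTATTt
Plxna2 had 144 and 128 CPM in IFE transgenic libraries, against 263 and 234 CPM in IFE control libraries, which did not overlap. Its log2 fold change of -0.87 (SE 0.23, edgeR adjusted p = 0.0474) was close to the threshold. In HG it had 225 and 144 CPM in transgenic and 230 and 229 CPM in control libraries (-0.32, SE 0.23, adjusted p = 0.520). The IFE call held in 6 of 19 alternatives. It was lost without the HG library of control pup 3 (-0.84, 0.0544) and without any 1 of the IFE libraries of control pup 3 (-0.72, 0.256), control pup 5 (-0.95, 0.148), transgenic pup 4 (-0.95, 0.259) and transgenic pup 6 (-0.76, 0.449), and with library size alone as the scale (-0.71, 0.308).

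The levels of Plxnd1, Plxnc1 and Nrp1 and the immune marker sum were all highest in the same pair of libraries, those of transgenic IFE. Sema3e and Nrp2, which also passed as higher in transgenic IFE, went the other way. They were highest in HG transgenic libraries, at 69.9 and 65.7 CPM for Sema3e and 119 and 242 CPM for Nrp2. Their IFE transgenic levels were 29.8 and 43.7 CPM for Sema3e and 99.1 and 70.7 CPM for Nrp2. Of 16 immune markers tested, 15 were higher in transgenic than in control IFE (median log2 fold change 4.20) and 4 were higher in HG (median 1.44). The 10 endothelial markers summed to 22.0 and 17.2 CPM in IFE transgenic against 8.01 and 3.06 CPM in IFE control libraries, and to 43.9 and 69.7 CPM in HG transgenic against 8.43 and 7.51 CPM in HG control libraries, with Emcn and Cldn5 at 0 in all 8 libraries. Flt1 made up 32.7 and 56.1 CPM of the HG transgenic sums, where Cdh5 was at 0. The lowest edgeR adjusted p among the 6 endothelial markers tested was 0.0592 in HG, for Flt1, and 0.2 in IFE, for Kdr, so that neither passed. Of 11 melanocyte markers, 5 were higher in transgenic IFE and 4 in transgenic HG. Of 10 basal keratinocyte markers, 7 were lower in transgenic IFE (median -0.91), and the HG median was -0.44. The part of these other cell types in the guidance gene results was not tested.

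**Figure D3:**
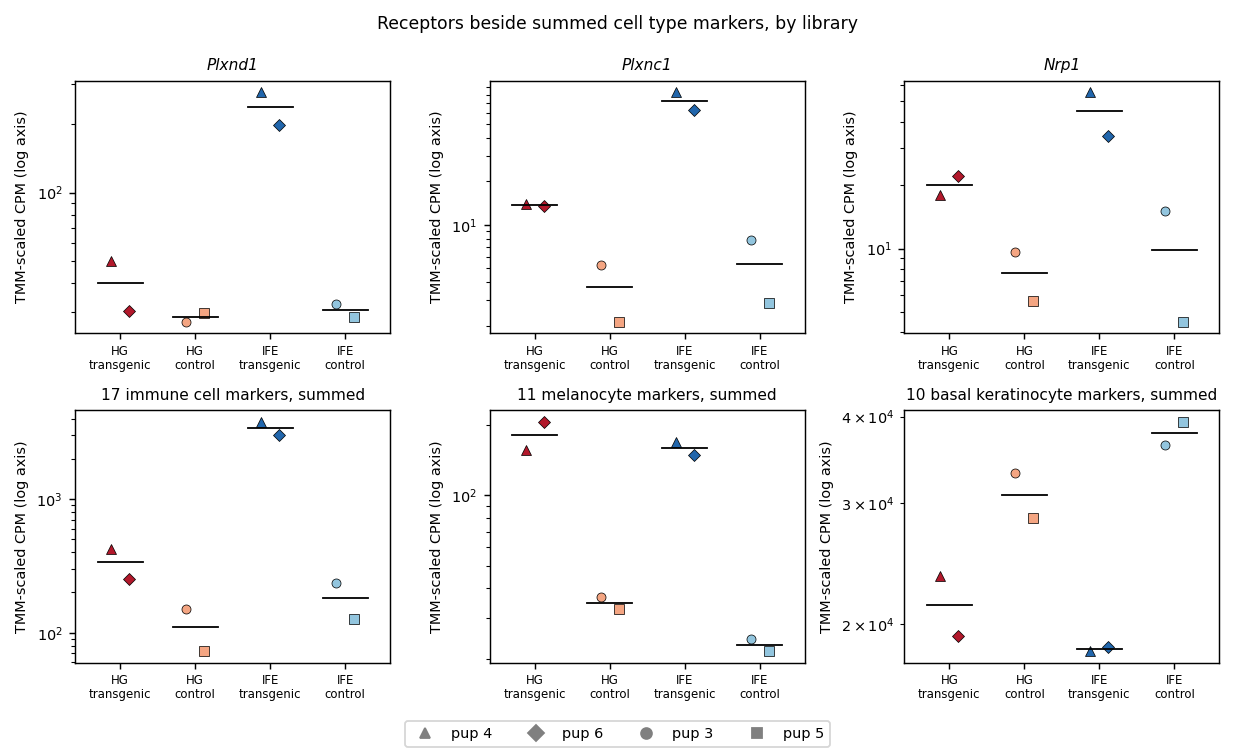
TMM-scaled CPM (vertical axis, logarithmic) by library for the receptors Plxnd1, Plxnc1 and Nrp1 (upper row) and for the summed immune, melanocyte and basal keratinocyte markers (lower row), with a bar at the group mean of n = 2 pups. The immune sum and the 3 receptors are highest in the 2 IFE transgenic libraries, at 3778 and 3010 CPM for the sum, whereas the basal keratinocyte sum is lowest there and the melanocyte sum is as high in HG transgenic libraries. Sema3e and Nrp2, which also passed as higher in transgenic IFE, are not drawn and were highest in HG transgenic libraries.

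Among Eph receptors and ephrins, Ephb3 fell in transgenic IFE and no other member passed in either population. Ephb3 (chr16:21204755-21223305, plus strand), a receptor of B-class ephrins that sorts cells in the intestinal crypt, stood at 21.3 and 18.7 CPM in IFE transgenic libraries, against 87.6 and 56.5 CPM in IFE control libraries. In HG it stood at 38.7 and 48.5 CPM in transgenic libraries, against 70.6 and 65.0 CPM in control libraries. Every transgenic library was below every control library of its population, and the gap was wider in IFE. The log2 fold change was -1.85 in IFE (SE 0.30, edgeR adjusted p = 0.00282) and -0.64 in HG (SE 0.28, adjusted p = 0.276), and the difference between them was not shown (1.21, SE 0.41, adjusted p = 0.432). The IFE call was lost without the IFE library of transgenic pup 6 (-1.71, 0.0591), without both libraries of pup 4 (-1.88, 0.105) and without the 2 libraries rich in Rn45s (-1.58, 0.239). Ephb3 had no seed match. Of the other EphB receptors, Ephb4 had 128 and 123 CPM in IFE transgenic libraries, against 212 and 203 CPM in IFE controls, with no overlap, and 190 and 209 CPM in HG transgenic libraries, against 317 and 221 CPM in HG controls. Ephb6, a receptor without kinase activity, had 61.3 and 72.8 CPM in HG transgenic libraries, against 65.8 and 40.7 CPM in HG controls, which overlapped.

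All 4 EphA receptors tested lay lower in transgenic IFE, with log2 fold changes of -0.70 to -0.52 and none past the threshold. Epha4, which binds ephrins of both classes, had 192 and 164 CPM in IFE transgenic libraries, against 303 and 272 CPM in IFE control libraries (-0.69, SE 0.23, adjusted p = 0.116). Epha2, a receptor of ephrin A1 in keratinocytes, had 172 and 164 CPM in IFE transgenic libraries, against 157 and 323 CPM in IFE control libraries, and the control pups spread beyond the transgenic ones on both sides. In HG, Epha1 had 32.5 and 47.4 CPM in transgenic libraries, against 52.6 and 58.9 CPM in control libraries (-0.49, SE 0.30, adjusted p = 0.435). Of the ligands, Efna5 had 36.7 and 52.1 CPM in IFE transgenic libraries, against 78.0 and 66.8 CPM in IFE controls (-0.70, SE 0.27, adjusted p = 0.181). Efna1 had 16.3 and 33.0 CPM in IFE transgenic libraries, against 56.9 and 48.6 CPM in IFE controls. Efna3 had 20.1 and 17.1 CPM in HG transgenic libraries, against 4.22 and 3.66 CPM in HG controls, a log2 fold change of 2.25 that did not pass (SE 0.63, adjusted p = 0.108). Efna3 shares exon sequence on the opposite strand with Gm15998, and whether reads were counted by strand is a detail not given in the sources used here. Such an opposite-strand overlap occurs in 11 members, among them Epha1 (with Zyx), Plxna1, Plxnb1, Plxna4, Ntn3 and Unc5c. Efnb2, the ligand of Ephb4, had 133 and 129 CPM in IFE transgenic libraries, against 199 and 149 CPM in IFE controls (-0.40, SE 0.22, adjusted p = 0.399).

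Slit2, a secreted repellent for Robo-bearing cells, rose in transgenic HG, and its receptors Robo1 and Robo2 did not pass in the transgenic comparisons by edgeR. Slit2 had 11.3 and 19.4 CPM in HG transgenic libraries, against 0 and 1.06 CPM in HG control libraries, and 4.72 and 6.35 CPM in IFE transgenic libraries, against 1.39 and 1.61 CPM in IFE controls. All 4 transgenic libraries lay above all 4 controls. Its log2 fold change was 4.64 in HG (SE 0.90, edgeR adjusted p = 0.0343) and 1.87 in IFE (SE 0.92, adjusted p = 0.332), and the size in HG rests on a control group with counts of 0 and 16. Over 19 alternatives the HG value ran between 3.78 (without the HG library of control pup 3) and 10.23 (without that of control pup 5, which leaves a control count of 0, so that the fitted value is no bound). The HG call held in 8 of 19 alternatives. It was lost without the HG library of transgenic pup 4 (4.96, 0.102) or transgenic pup 6 (4.20, 0.158), and without any 1 of the IFE libraries of control pup 3 (4.62, 0.0606), control pup 5 (4.62, 0.0592), transgenic pup 4 (4.62, 0.0546) and transgenic pup 6 (4.59, 0.0577). The 3492-base UTR of Slit2 holds 2 matches of the miR-200b seed group (chr5:48304852-48304877 and chr5:48304974-48304999, plus strand). Of these, the upper one is followed by an adenosine, also in capitals, and is thus an 8-base match.
Slit2, 8-base match: tgtttagctaccagtttcCAGTATTA
Slit2, 7-base match: gttctaaatatccctataCAGTATTc
Robo2 had 120 and 101 CPM in HG transgenic libraries, against 61.1 and 54.0 CPM in HG controls, with no overlap (0.95, SE 0.27, edgeR adjusted p = 0.108). By DESeq2 Robo2 passed there, close to the threshold (0.95, DESeq2 adjusted p = 0.0489). Robo1 had 351 and 511 CPM in HG transgenic and 387 and 275 CPM in HG control libraries, which overlapped. In IFE it had 153 and 198 CPM in transgenic libraries, against 249 and 228 CPM in control libraries (-0.44, SE 0.25, adjusted p = 0.425). Slit1 and Slit3 stayed at or under 4.85 and 10.02 CPM in every library.

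Netrins and Unc5 receptors did not pass in either transgenic comparison. Ntn4, a laminin-like netrin of basement membranes, had 11.7 and 8.16 CPM in IFE transgenic libraries, against 23.0 and 23.1 CPM in IFE control libraries, with no overlap (-1.24, SE 0.43, edgeR adjusted p = 0.134). Ntn1, the netrin that attracts axons through Dcc, had 1.14 and 1.21 CPM in HG transgenic libraries, against 0 CPM in both HG control libraries. These were 23 counts over both transgenic libraries, and the test did not pass (adjusted p = 0.198). Plxna4, named after its values were seen, showed the same pattern, at 1.76 and 2.67 CPM in HG transgenic libraries against 0 CPM in both HG controls, and did not pass (adjusted p = 0.133). Ntn3 and Unc5c stayed at or under 4.13 and 2.37 CPM in every library. The dependence receptor Unc5b was level, at 40.7 and 27.4 CPM in HG transgenic against 29.0 and 37.3 CPM in HG control libraries (0.04, SE 0.32, 95% interval -0.67 to 0.75), and at 20.1 and 22.9 CPM in IFE transgenic against 21.8 and 22.6 CPM in IFE control libraries (-0.04, SE 0.34, 95% interval -0.79 to 0.71). The sign of both Unc5b values changed in some alternatives.

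The populations were compared next, first over both genotypes. In HG against IFE, 4 of the 55 guidance genes passed, 3 higher in HG and 1 lower, where 3.39% of all genes passed (1% higher and 2.39% lower). Nrp2, Sema5a and Robo1 were higher in HG and Plxnd1 was lower. The median log2 fold change of the 55 genes was 0.34, against -0.04 over all genes, and 0.08 to 0.58 over 19 alternatives. The mean log2 fold change was 1.49 for Nrp2 (SE 0.24, edgeR adjusted p = 0.00715), 0.79 for Sema5a (SE 0.14, adjusted p = 0.0133), 0.88 for Robo1 (SE 0.18, adjusted p = 0.0205) and -1.32 for Plxnd1 (SE 0.20, adjusted p = 0.00566). For Nrp2 the HG transgenic libraries, at 119 and 242 CPM, were above the IFE transgenic libraries, at 99.1 and 70.7 CPM, and the HG control libraries, at 116 and 98.6 CPM, were above the IFE control libraries, at 23.3 and 33.8 CPM. Taking the pup as a block, since each pup gave both populations, 11 members passed where 5.83% of all genes did, and Efnb1, Epha2, Ephb4, Plxnb1, Plxnc1, Sema4d and Sema6a joined the 4 named. Short of the threshold in the unblocked test were Sema3b (1.65, SE 0.48, adjusted p = 0.0885), Epha7 (1.02, SE 0.34, adjusted p = 0.131) and Efnb1 (0.79, SE 0.22, adjusted p = 0.0754). Without 1 library, the Nrp2 call was lost when the HG library of transgenic pup 6 was left out (1.19, 0.0522). The Sema5a call was lost without that library (0.73, 0.0826) and without the IFE library of control pup 5 (0.72, 0.0557), transgenic pup 4 (0.78, 0.115) or transgenic pup 6 (0.80, 0.0893). The Robo1 call was lost without the same HG library (0.73, 0.115) and without any 1 of the IFE libraries of control pup 3 (0.91, 0.0516), control pup 5 (0.84, 0.0720), transgenic pup 4 (0.79, 0.142) and transgenic pup 6 (0.97, 0.0501).

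In transgenic pups alone, 4 guidance genes passed between HG and IFE, 2 higher and 2 lower, where 4.62% of all genes passed (0.875% higher and 3.75% lower). Sema5a had 191 and 223 CPM in HG, against 91.0 and 93.3 CPM in IFE, of transgenic pups (log2 fold change 1.16, SE 0.20, edgeR adjusted p = 0.00691). Robo1 had 351 and 511 CPM in HG, against 153 and 198 CPM in IFE (1.29, SE 0.25, adjusted p = 0.0122). Both populations were clearly apart for these genes. Plxnd1, with 50.3 and 30.3 CPM in HG against 275 and 198 CPM in IFE, was lower in HG by a log2 fold change of -2.54 (SE 0.29, adjusted p = 0.000950), and Plxnc1, with 14.0 and 13.6 CPM against 83.1 and 62.5 CPM, by -2.39 (SE 0.45, adjusted p = 0.0103). With the pup as a block 11 members passed where 7.18% of all genes did, the additions being Efnb1, Ephb3, Plxna1, Plxnb1, Robo2, Sema3f and Sema4d. In the same comparison 14 of 16 immune markers were lower in HG (median -3.37), and their part in the guidance gene results was not tested. The Sema5a call was lost without the HG library of transgenic pup 6 (1.01, 0.114) or the IFE library of transgenic pup 4 (1.13, 0.134) or transgenic pup 6 (1.15, 0.102), the Robo1 call without the HG library of transgenic pup 6 (0.96, 0.183) or the IFE library of transgenic pup 4 (1.10, 0.195), and the Plxnc1 call without the HG library of transgenic pup 4 (-2.47, 0.106) or transgenic pup 6 (-2.41, 0.152) or the IFE library of transgenic pup 4 (-2.19, 0.0768).

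In control pups alone, 0 of the 55 guidance genes passed between HG and IFE, where 1 gene of 14176, or 0.00705%, passed. At an unadjusted edgeR p under 0.05 there were 7 members, or 12.7%, against 8.47% of all genes. DESeq2 called 1 member and 160 genes in all, and limma-voom called 0 of either. Nrp2 came nearest by edgeR, with a log2 fold change of 1.89 (SE 0.34, adjusted p = 0.213), and its pups did not overlap between the populations. Nrp2 was the member that DESeq2 called (1.93, DESeq2 adjusted p = 0.000197). It also passed with library size alone as the scale (2.19, edgeR adjusted p = 0.00686). Without the HG library of control pup 5 it was past the threshold (2.01, adjusted p = 0.0473). Sema5a had 187 and 194 CPM in HG, against 156 and 129 CPM in IFE, of control pups (0.42, SE 0.20, adjusted p = 0.595), and Robo1 had 387 and 275 CPM against 249 and 228 CPM (0.47, SE 0.25, adjusted p = 0.621). Plxnd1 was level, with 27.2 and 29.7 CPM in HG against 32.6 and 28.6 CPM in IFE of control pups (-0.10, SE 0.29, 95% interval -0.73 to 0.53). The transgenic and population comparisons share libraries, so their values stand side by side here and are not independent of each other.

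**Figure D4:**
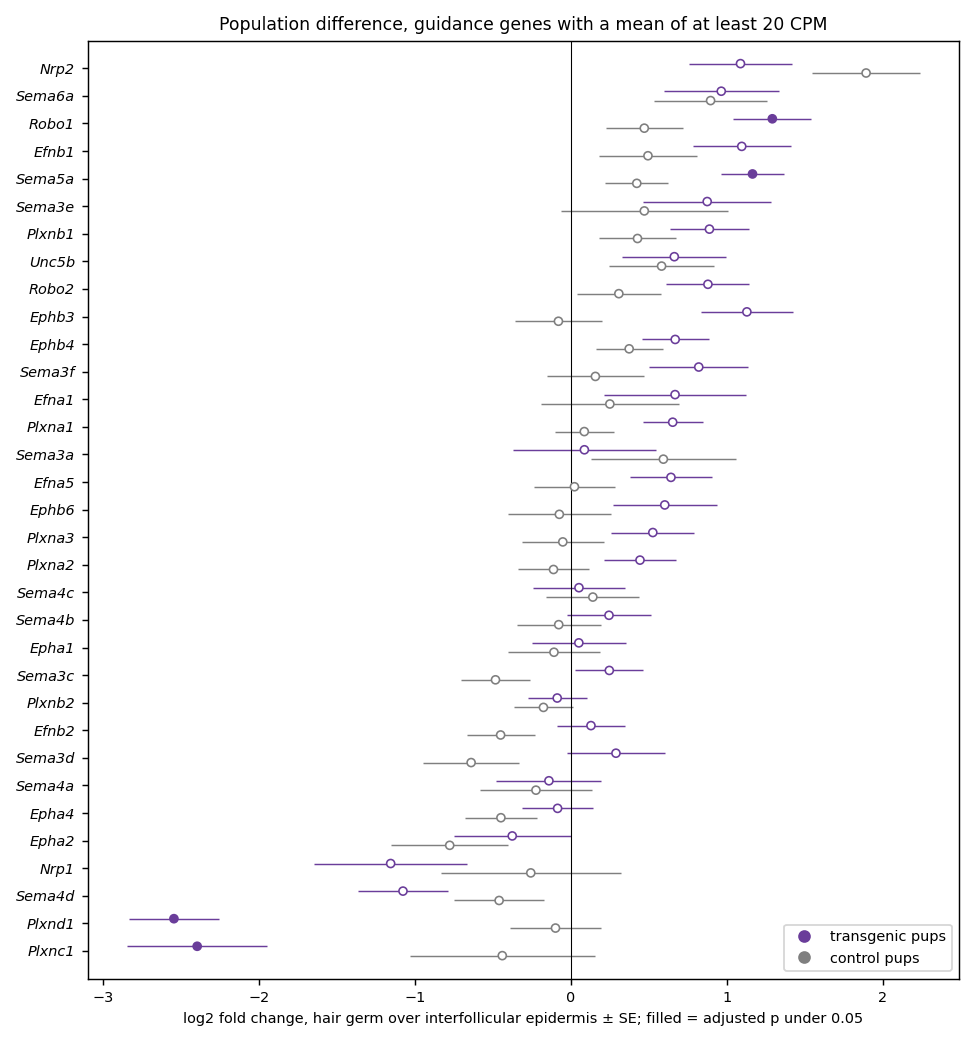
Log2 fold change of HG over IFE (horizontal axis, point) with its SE (line) for the 33 guidance genes with a mean of at least 20 CPM, ordered by the mean over both genotypes, with transgenic pups in purple, control pups in grey and filled points for an edgeR adjusted p under 0.05. Nrp2 is highest in HG in control pups at 1.89, and Plxnd1 and Plxnc1 lie at -2.54 and -2.39 in transgenic pups and at -0.10 and -0.44 in control pups.

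Genes that act with the guidance receptors inside or at the surface of cells were examined as a list of 50 partners, of which 45 were tested. In IFE 4 were higher in transgenic pups and 2 lower by edgeR, where 4.99% of all genes were higher and 1.35% lower. The median log2 fold change of the partners there was -0.06, against -0.01 over all genes. In HG 1 partner was higher, where 0.762% of all genes were, with a median of 0.05 against 0.04 over all genes. The collapsin response mediators Dpysl2 and Dpysl3 carry semaphorin signals to the cytoskeleton. Dpysl2 had 336 and 353 CPM in IFE transgenic libraries, against 34.3 and 18.6 CPM in IFE controls (log2 fold change 3.73, SE 0.39, adjusted p = 0.000238), and Dpysl3 had 34.6 and 36.7 CPM in HG transgenic libraries, against 3.25 and 1.53 CPM in HG controls (3.94, SE 0.82, adjusted p = 0.0493). Mical1, an oxidoreductase that disassembles actin below plexins, had 75.5 and 70.0 CPM in IFE transgenic libraries, against 12.0 and 12.5 CPM in IFE controls (2.57, adjusted p = 0.00467). The Slit-Robo GTPase-activating protein Srgap3 (3.602, adjusted p = 0.0266) and the kinase Fyn (4.20, adjusted p = 0.00281) also rose in transgenic IFE, and Farp1 (-0.78, adjusted p = 0.0428) and Met (-0.82, adjusted p = 0.0387) fell there. Immune marker levels were highest in the same IFE libraries, as given above, and their part was not tested.

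Seed matches occurred in genes that fell and in genes that rose. Of the 68 guidance genes, 27, or 39.7%, had at least 1 match to either seed group in the longest 3′ UTR, and 23 of the 55 tested had one, or 41.8%, against 30.3% of the 12649 genes tested that have a UTR in the annotation. The 55 genes also had longer UTRs, with a median of 1538 bases against 1204 bases over all genes, and 0.330 matches per kilobase against 0.275. The search covered CAGTATT and CAGTGTT on the transcript strand, and a match is a description of the sequence rather than a shown site. Of the 10 members that passed in a transgenic comparison, 5 had a match and 5 had none. Among the 5 with a match, Sema3d, Sema3f and Plxna2 fell and Plxnc1 rose in IFE, and Slit2 rose in HG. Among the 5 without, Ephb3 fell and Plxnd1, Nrp1, Nrp2 and Sema3e rose. In IFE the median log2 fold change was -0.52 for the 23 members with a match and -0.19 for the 32 without, against -0.12 and 0.03 over all genes. In HG the medians were 0.06 with and 0.11 without a match, against -0.05 and 0.08 over all genes. Zeb2, a textbook miR-200 target, had 295 and 169 CPM in IFE transgenic libraries, against 14.1 and 3.14 CPM in IFE controls (4.90, SE 0.54, edgeR adjusted p = 0.000299), and was thus higher in the libraries with the transgene and with the highest immune marker sums. The part of other cell types in the Zeb2 level was not tested. Zeb1, which was also chosen as a check, and the HG level of Zeb2 are not reported here. The Zeb2 values therefore describe that gene in IFE and not miR-200 targets in general.

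**Figure D5:**
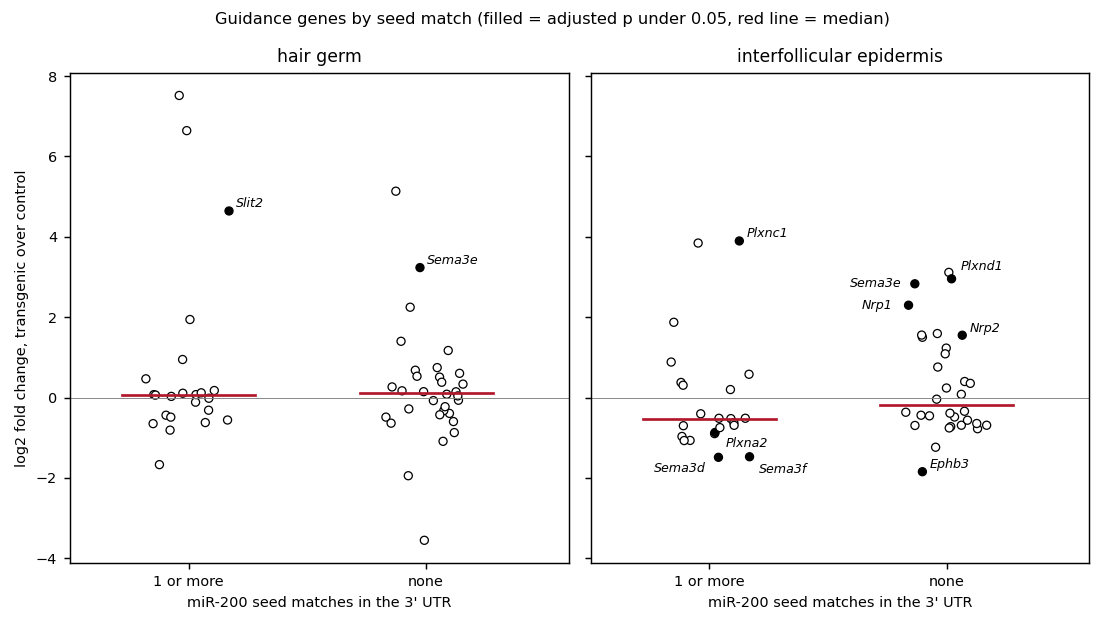
Log2 fold change of transgenic over control pups (vertical axis) for the 55 guidance genes tested, in HG (left) and IFE (right), split into genes with 1 or more miR-200 seed matches in the 3′ UTR and genes with none, with filled points for an edgeR adjusted p under 0.05 and a red line at the median. Genes past the threshold lie on both sides of 0 in both classes in IFE, where the medians are -0.52 with and -0.19 without a match.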

How the data were processed

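Total RNA of 8 sorted mouse libraries was analysed from the deposited raw counts per gene symbol. Per the submitters' processing notes, the authors used TopHat, HTSeq and DESeq2 with mm10/GRCm38; tool versions and strandedness of counting were not given in the sources used here. Libraries were made with a stranded low-input total RNA kit, per the labels. A deposited matrix of normalised values was not used. HTSeq summary lines were left out of library sizes and tests: reads in no gene made up 30.0% to 47.8%, and reads with several alignments 12.5% to 46.5%.

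Counts were tested with edgeR 4.0.16 in R 4.3.3 (TMM scaling, filterByExpr by group, glmQLFit with legacy set to FALSE, glmQLFTest, two-sided), as 4 group means over all 8 libraries, with Benjamini-Hochberg adjustment over 14176 genes per contrast and a threshold of 0.05. Standard errors are |log2 fold change| divided by √F. CPM are counts over TMM-scaled library sizes. The floor is 3 counts per library and covers counting error only. Pups are separate animals, per the labels. Pup numbers pair HG with IFE, as each number is 1 animal per the labels; the correlation across genes of a pup's deviations from its group means was -0.113 in transgenic and 0.519 in control pups over the 55 guidance genes tested, and 0.0868 in transgenic and 0.117 in control pups over all genes tested. Exon lengths, overlaps and 3′ UTRs come from GENCODE M21 (GRCm38), where all 68 symbols matched.

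Earlier results of these data were known when the guidance genes, the marker and partner lists and the naming rule were chosen. The rule named members that passed in any contrast, the 2 most abundant of each family, the member with the smallest p of each family in the transgenic and mean population contrasts, and those at 0 everywhere. In simulated data for the IFE transgenic comparison (13739 genes), 70.2% of the testable genes changed 4-fold and 2.08% of those changed 2-fold were recovered. The simulated spread was below the common biological coefficient of variation of the data (0.4746), so these shares may be too high for the data. Alternatives were DESeq2 size factors, library size alone, Rn45s removed, other filters, DESeq2 1.42.0, limma 3.58.1 (voom), edgeR's legacy method, only the libraries compared, the pup as a block, and leaving out each library, pup 4 or the 2 libraries rich in Rn45s.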

Additional observations from a re-analysis of the deposited data

Results flagged for a closer look

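Plxnd1 was set apart because its transgenic effect differed between the populations by the test of that difference. The effect in hair germ minus that in interfollicular epidermis was -2.45 on the log2 scale (SE 0.40, edgeR adjusted p = 0.0479), from 50.3 and 30.3 CPM in HG transgenic against 27.2 and 29.7 CPM in HG control libraries, and 275 and 198 CPM in IFE transgenic against 32.6 and 28.6 CPM in IFE control libraries. Its difference passed in 8 of 19 alternatives and kept its sign in all 19. The immune marker sum was also highest in the 2 IFE transgenic libraries, and its part in this difference was not tested.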

How the results depend on the processing

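With 2 pups a group and a common biological coefficient of variation of 0.4746, small changes were rarely detectable, and many calls depended on single libraries. Counts of guidance genes are followed in brackets by the count over all genes tested, which moved as well. The 2 (135) passing for transgenic against control HG became 4 (683) with DESeq2, 1 (17) with limma-voom, 1 (54) with edgeR's legacy method, 1 (22) with only the compared libraries, 0 (1) without pup 4, 1 (20) without the 2 libraries rich in Rn45s, and 0 to 3 (14 to 347) when single libraries were left out. The 9 (899) in IFE became 2 (207) without pup 4, 3 (195) without the Rn45s-rich pair and 4 to 12 (303 to 1209) without single libraries. Between HG and IFE of control pups, the 0 (1) became 1 (29) with library size alone, 1 (160) with DESeq2 and 0 to 1 (0 to 123) without single libraries. For transgenic pups the 4 (655) became 7 (666) with library size alone, 10 (901) with DESeq2, 12 (1385) with only the compared libraries, 0 (0) without pup 4, 1 (192) without the Rn45s-rich pair and 1 to 8 (47 to 1026) without single libraries. For the mean of both genotypes the 4 (481) became 9 (536) with library size alone, 12 (1030) with DESeq2, 0 (1) without pup 4, 0 (9) without the Rn45s-rich pair and 1 to 10 (78 to 1258) without single libraries. The pup as a replicate block gave 11 (1018) in transgenic pups and 11 (826) for the mean of both genotypes, and left the guidance gene counts of 0 (7) in control pups and 1 (86) for the difference of effects as they were. The 1 (19) difference of effects became 0 with Rn45s removed (1), limma-voom (1), edgeR's legacy method (2), without pup 4 (0) or without the Rn45s-rich pair (0), and 0 to 1 (0 to 192) without single libraries. Over all alternatives the median log2 fold change of the guidance genes between HG and IFE was 0.38 to 0.79 in transgenic and -0.10 to 0.42 in control pups.

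Signs reversed for 8 genes, none of them past the threshold there. Unc5b was -0.30 in HG without pup 4, with -0.32 to 0.27 without single libraries. In IFE it was 0.13 with library size alone, 0.016 without a filter, 0.11 without pup 4 and 0.041 without the Rn45s-rich pair, with -0.12 to 0.052 without single libraries. Leaving out single libraries gave -0.0016 to 0.27 for Efnb2 and -6.79 to 3.17 for Sema5b in HG, -1.11 to 0.14 for Sema6a in IFE, and -2.56 to 0.49 for Ntn1 between populations. Between populations of control pups, Plxnc1 was 0.29 without the Rn45s-rich pair, with -1.18 to 0.33 without single libraries, and Plxnd1 was 0.22 with library size alone and 0.0053 without that pair, with -0.20 to 0.023 without single libraries. The difference of effects for Sema3e was -0.41 without that pair, with -0.19 to 1.35 without single libraries. Library size alone moved the IFE median of all genes by 0.16. The causes were not tested.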
